A study of Mus musculus with 12 samples.

Results

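The 9 genes described here encode the 4 protein kinases that phosphorylate the alpha subunit of the translation initiation factor eIF2 (*Eif2ak1*, *Eif2ak2*, *Eif2ak3* and *Eif2ak4*), that subunit itself (*Eif2s1*), and 4 regulators of its phosphorylation (*Ppp1r15b*, *Prkra*, *Tarbp2* and *Dnajc3*). They were chosen by name and are 9 of the 20620 genes in the deposited count table. Total RNA and ribosome footprints, the fragments that ribosomes shield from nuclease, were profiled in whole testes taken from C57BL/6 mice at postnatal day 16 (P16). *Mael*-/- mice lack Maelstrom, a protein needed to make the piRNAs that silence retrotransposons in germ cells, and the *Mael*+/- controls carry a single disrupted copy of the same gene. All testes were collected in cycloheximide, which holds ribosomes on the mRNA. Each of the 4 groups (2 genotypes in 2 assays) held 3 libraries, described as biological replicates. How many animals went into an extract is not given in the sources used here, so the p-values measure the spread between these extracts.

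Translation begins when eIF2, loaded with GTP, brings the initiator tRNA to the small ribosomal subunit. Once its alpha subunit is phosphorylated, eIF2 blocks its own exchange factor eIF2B, so that most initiation slows while a few mRNAs with upstream reading frames, such as *Atf4*, are translated more. This switch, the integrated stress response, is thrown by a different signal at each kinase: haem shortage at *Eif2ak1* (HRI), double-stranded RNA at *Eif2ak2* (PKR), unfolded protein in the endoplasmic reticulum at *Eif2ak3* (PERK) and uncharged tRNA at *Eif2ak4* (GCN2). The study asked whether translation was disturbed in testes in which the retrotransposon LINE-1 escapes control. It singled out PRKRA, described as an activator of PKR that can also repress it, as a partner of the LINE-1 protein ORF1p. The counts describe mRNA and ribosome occupancy, and they carry no measure of kinase activity or of phosphorylation. By western blot, the paper found phosphorylated eIF2 alpha not significantly changed in P16 testes of *Mael*-/- mice.

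Some of these genes belong to response circuits themselves, so their promoters are shown for the elements through which such circuits act. RefSeq promoter windows of 300 bases on GRCm38.p6 (250 before and 50 after the start of the transcript) were found for 8 of the 9 genes, all but *Ppp1r15b*. Both strands were searched for an interferon response element (GAAANNGAAA), an endoplasmic reticulum stress element (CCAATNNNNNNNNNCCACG) and an amino acid response core (TGATGNAA). Stretches of the 3 matching windows are printed on the gene's strand, with the element in capitals. *Dnajc3* (chr14:118937787-118937885, plus strand) held the stress element, at bases -105 to -87 counted from its start. *Eif2ak2* (chr17:78882543-78882594, minus strand) held an interferon element at bases 18 to 27 after its start. *Eif2s1* (chr12:78861822-78861909, plus strand) held an interferon element at bases -212 to -203.
Dnajc3: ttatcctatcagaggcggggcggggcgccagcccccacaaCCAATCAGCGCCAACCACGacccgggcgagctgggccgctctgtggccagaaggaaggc
Eif2ak2: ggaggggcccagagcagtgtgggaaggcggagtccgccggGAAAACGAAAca
Eif2s1: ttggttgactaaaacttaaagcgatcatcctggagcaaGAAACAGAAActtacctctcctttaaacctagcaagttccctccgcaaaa
Of 32851 windows in the table, 39 (0.119%) held the stress element, 1131 (3.44%) the interferon element and 1304 (3.97%) the amino acid core, which was found in none of the 8. A match is a run of letters and not a measured binding site.

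Levels are given in CPM, the share of a gene in all gene counts of a library after TMM normalization. The RNA libraries held 13697267 to 27462358 counts on genes and the footprint libraries 7609932 to 13233565. *Mael* itself had 1, 2 and 0 counts in the *Mael*-/- RNA libraries and 0, 0 and 7 in the *Mael*-/- footprint libraries, against means of 173 ± 39.9 and 102 ± 30.3 CPM in the controls (SD, n = 3). Markers of spermatogonia, meiotic prophase, Sertoli, Leydig, peritubular cells and macrophages were detected in all 12 libraries, while the late pachytene genes *Pgk2* and *Acr* were at 0 in some. The first *Mael*+/- extract stood apart in both assays. Its 12 pachytene spermatocyte markers summed to 963 CPM in RNA and 1103 CPM in footprints, against 286 to 369 CPM and 312 to 415 CPM in the other 10 libraries. Values without this extract are given beside those of several members, ratios and lists.

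None of the 9 genes was called different between the genotypes in either assay. The same held for translation efficiency, the change in footprints beyond that in RNA. A gene was called at an edgeR adjusted p under 0.05. Over all genes tested, 17 of 14685 (0.116%) were called for RNA, 8 of 13500 (0.0593%) for footprints and 0 of 13448 (0.0%) for efficiency. No member had an unadjusted p under 0.05 in any of the 3 tests, as 5.4% of all genes did for RNA, 4.33% for footprints and 0.394% for efficiency. DESeq2 called no gene in translation efficiency either. All 9 members passed the filter on low counts in both assays. The 2 genotypes overlapped for every member in both assays. Over all genes, 10.3% in RNA and 9.1% in footprints had no overlap, shares too small to set the 9 genes apart. Fold changes above 0 numbered 6 of 9 in RNA, 7 in footprints and 8 for efficiency, with medians of 0.05, 0.08 and 0.03 on the log2 scale beside medians near 0 over all genes (-0.00, -0.01 and -0.00). In whole testis, fewer cells of a type and less RNA per cell cannot be told apart.

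**Figure D1:**
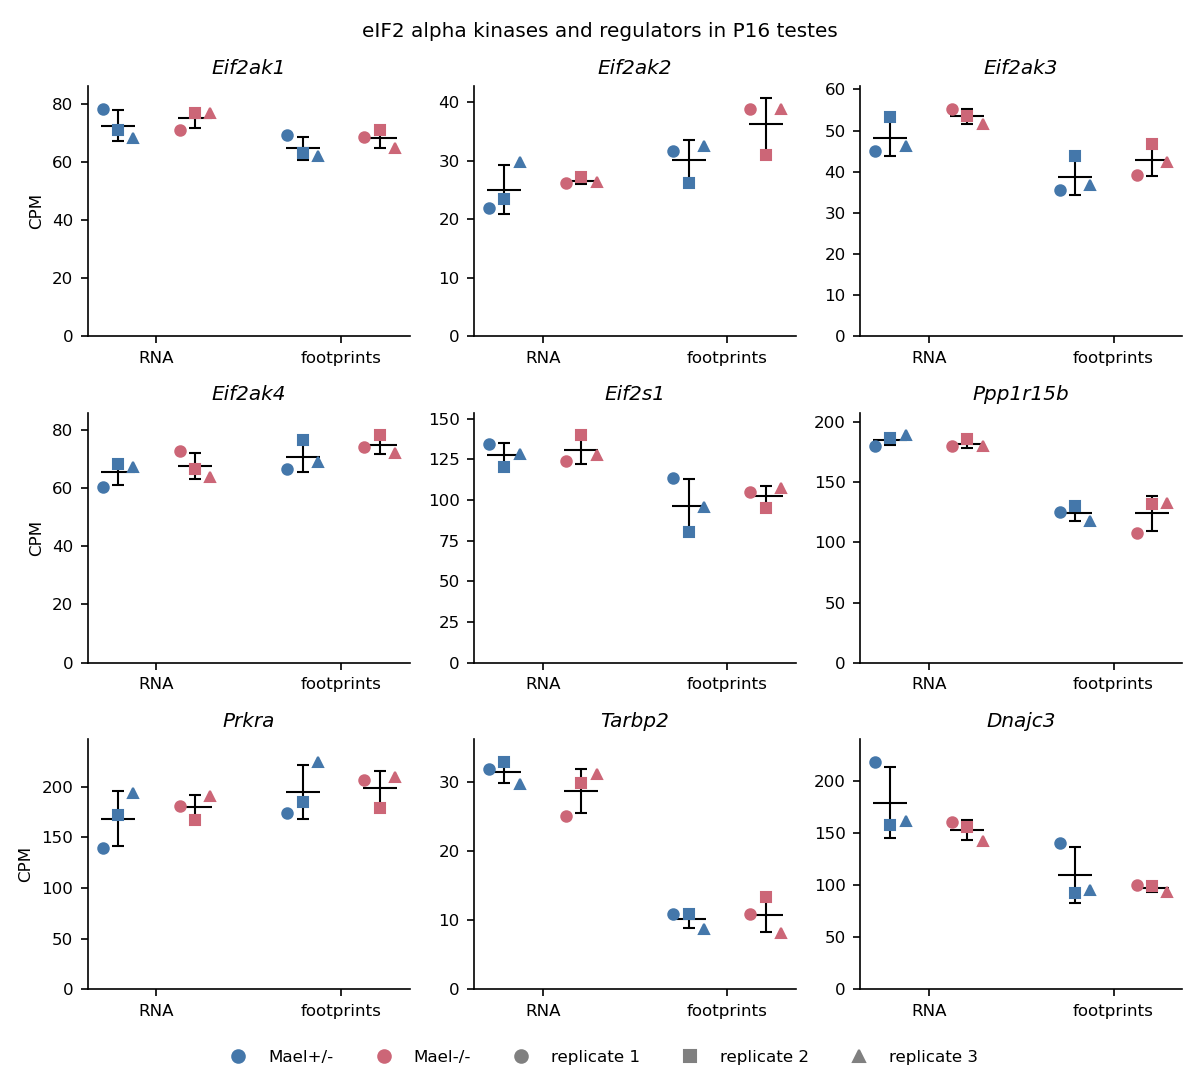
Level of each of the 9 genes in CPM (vertical axes, from 0) in the 12 libraries, blue for *Mael*+/- and red for *Mael*-/-, with the symbol giving the replicate number, the black line the mean of 3 libraries and the bar their SD. The genotypes overlap in every panel, *Tarbp2* is lower in all footprint than in all RNA libraries, and *Dnajc3* is highest in *Mael*+/- replicate 1 in both assays.

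The kinases that answer to haem, amino acid and endoplasmic reticulum stress differed little between the genotypes. *Eif2ak1* (chr5:143817792-143902717, plus strand of GRCm38.p6, as for the positions that follow) measured 78.2, 70.9 and 68.1 CPM in the RNA of *Mael*+/- replicates 1 to 3 and 71.0, 76.9 and 76.8 CPM in that of *Mael*-/- replicates 1 to 3. Its footprints were 69.2, 62.9 and 61.8 CPM in *Mael*+/- and 68.5, 70.9 and 64.5 CPM in *Mael*-/-. The highest RNA value was a control and the highest footprint value a mutant, so that neither genotype stood apart. The fold change of *Eif2ak1* was 0.05 (SE 0.09, 95% confidence interval -0.15 to 0.25) in RNA and 0.07 (SE 0.10, interval -0.14 to 0.29) in footprints, on the log2 scale as all fold changes here.

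*Eif2ak4* (chr2:118388583-118475234, plus strand), the amino acid sensor, measured 60.5, 68.1 and 67.3 CPM in *Mael*+/- RNA and 72.5, 66.6 and 63.8 CPM in *Mael*-/- RNA. Its footprints were 66.5, 76.6 and 69.0 CPM in *Mael*+/- and 73.9, 78.0 and 72.0 CPM in *Mael*-/-. The spans crossed in both assays, and the fold changes were 0.05 (SE 0.09) and 0.08 (SE 0.10). *Eif2ak3* (chr6:70844484-70905241, plus strand), the sensor in the membrane of the endoplasmic reticulum, measured 45.1, 53.4 and 46.3 CPM in *Mael*+/- RNA and 55.3, 53.4 and 51.6 CPM in *Mael*-/- RNA. In footprints it measured 35.6, 43.7 and 36.7 CPM in *Mael*+/- and 39.2, 46.8 and 42.4 CPM in *Mael*-/-. Control replicate 2 reached into the range of the mutants in both assays, while control replicates 1 and 3 lay below all 3 of them. The fold change of *Eif2ak3* was 0.15 in RNA (SE 0.10, interval -0.07 to 0.37) and 0.15 in footprints (SE 0.12, interval -0.12 to 0.41).

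*Eif2ak2* (chr17:78850504-78882572, minus strand), the kinase that binds double-stranded RNA, was the lowest of the kinases in RNA counts. It measured 22.0, 23.5 and 29.8 CPM in *Mael*+/- RNA and 26.2, 27.3 and 26.3 CPM in *Mael*-/- RNA. The 3 mutant libraries lay inside the span of the controls, and the fold change was 0.08 (SE 0.13, interval -0.21 to 0.37). Without the RNA of the first *Mael*+/- extract, in which the gene was lowest, it was -0.00. In footprints *Eif2ak2* measured 31.7, 26.1 and 32.5 CPM in *Mael*+/- and 38.8, 30.9 and 38.9 CPM in *Mael*-/-. Mutant replicates 1 and 3 exceeded every control, and mutant replicate 2 lay below control replicates 1 and 3. This footprint fold change, 0.26 (SE 0.13, interval -0.03 to 0.56, edgeR adjusted p 0.998), was the largest of the 9 in either direction, and it ran from 0.17 to 0.37 as each library was left out in turn. The interval includes 0 and a rise to 1.48-fold. With a block on the replicate number, which was not taken to pair the libraries across genotypes, the value was 0.27. Its interval of 0.015 to 0.52 left out 0 (edgeR unadjusted p 0.040, adjusted p 0.877). All 6 macrophage markers had fold changes above 0 in both assays, but none was called. They summed to 118 to 195 CPM in *Mael*+/- and 182 to 194 CPM in *Mael*-/- RNA, and to 134 to 265 and 207 to 265 CPM in footprints, so the genotypes overlapped. *Mael*+/- replicate 3 was as high as the highest mutant library in both assays, and no marker was at 0 in any library. Their part in the *Eif2ak2* value was not tested.

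*Eif2s1* (chr12:78862072-78887010, plus strand), the substrate of the 4 kinases, measured 134, 121 and 128 CPM in *Mael*+/- RNA and 124, 139.7 and 127 CPM in *Mael*-/- RNA. Its footprints were 113, 80.2 and 95.8 CPM in *Mael*+/- and 105, 95.1 and 107 CPM in *Mael*-/-. The controls spread wider than the mutants in footprints and enclosed all 3 of them. The fold changes were 0.03 (SE 0.09, interval -0.16 to 0.22) in RNA and 0.08 (SE 0.13, interval -0.19 to 0.36) in footprints, or 0.21 without the first *Mael*+/- extract. *Ppp1r15b* (CReP) at chr1:133131166-133139800, plus strand, the constitutive subunit that directs protein phosphatase 1 to phosphorylated eIF2 alpha, was the steadiest of the genes in RNA. It measured 180.5, 187 and 189 CPM in *Mael*+/- RNA and 179.8, 186 and 180.5 CPM in *Mael*-/- RNA. In footprints it measured 125, 130.0 and 118 CPM in *Mael*+/- and 108, 132 and 133 CPM in *Mael*-/-. Mutant replicate 1 was the lowest and the other 2 mutants the highest of the 6 footprint libraries. Its fold changes were -0.03 (SE 0.08, interval -0.20 to 0.14) in RNA and -0.00 (SE 0.11, interval -0.24 to 0.23) in footprints.

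*Prkra* (PACT) and *Tarbp2* (TRBP) are close relatives that bind double-stranded RNA, and both also serve as partners of Dicer. PACT is known mainly as an activator of PKR, though it can also repress it, and TRBP inhibits PKR. *Prkra* (chr2:76609215-76648220, minus strand) measured 139.8, 172 and 194 CPM in *Mael*+/- RNA and 180.5, 167 and 191 CPM in *Mael*-/- RNA. Its footprints were 174, 185 and 225 CPM in *Mael*+/- and 207, 179 and 209 CPM in *Mael*-/-. The controls held both the lowest and the highest *Prkra* value in each assay. The fold changes were 0.09 (SE 0.12, interval -0.18 to 0.36) in RNA and 0.03 (SE 0.12, interval -0.23 to 0.29) in footprints, and without the first *Mael*+/- extract they were -0.03 and -0.05.

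*Tarbp2* (chr15:102516077-102523676, plus strand) measured 31.9, 32.8 and 29.7 CPM in *Mael*+/- RNA and 25.0, 29.7 and 31.1 CPM in *Mael*-/- RNA. Its footprints were 10.8, 10.9 and 8.68 CPM in *Mael*+/- and 10.8, 13.3 and 8.19 CPM in *Mael*-/-, from 69 to 143 counts a library. The mutants held the lowest RNA value and both the lowest and the highest footprint value. Fold changes were -0.13 (SE 0.11, interval -0.39 to 0.12) in RNA and 0.10 (SE 0.20, interval -0.34 to 0.53) in footprints, and the latter interval was the widest of the 9.

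*Dnajc3* (P58IPK), a co-chaperone of the endoplasmic reticulum known as an inhibitor of PKR and PERK, had the lowest fold changes of the 9 genes in both assays. The gene (chr14:118937932-118981702, plus strand) measured 218, 158 and 161 CPM in *Mael*+/- RNA and 161, 156 and 142 CPM in *Mael*-/- RNA. Its footprints were 140.0, 92.7 and 95.6 CPM in *Mael*+/- and 99.5, 99.5 and 93.1 CPM in *Mael*-/-. In both assays the first *Mael*+/- extract was far above the other 5 libraries, which lay close together. The fold change was -0.23 (SE 0.13, interval -0.51 to 0.06, edgeR adjusted p 0.973) in RNA and -0.17 (SE 0.15, interval -0.49 to 0.16) in footprints. Without the first *Mael*+/- extract these values were -0.06 and 0.05, so the footprint value changed sign. The same extract had the pachytene sums of 963 and 1103 CPM given above. The binding protein *Hspa5* (BiP), an endoplasmic reticulum chaperone, also peaked there in RNA, with 1460 CPM against 1142 and 1080 CPM in the other controls and 1001, 1027 and 1041 CPM in the mutants (fold change -0.26, SE 0.11, edgeR adjusted p 0.923, or -0.12 without the first *Mael*+/- library).

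**Figure D2:**
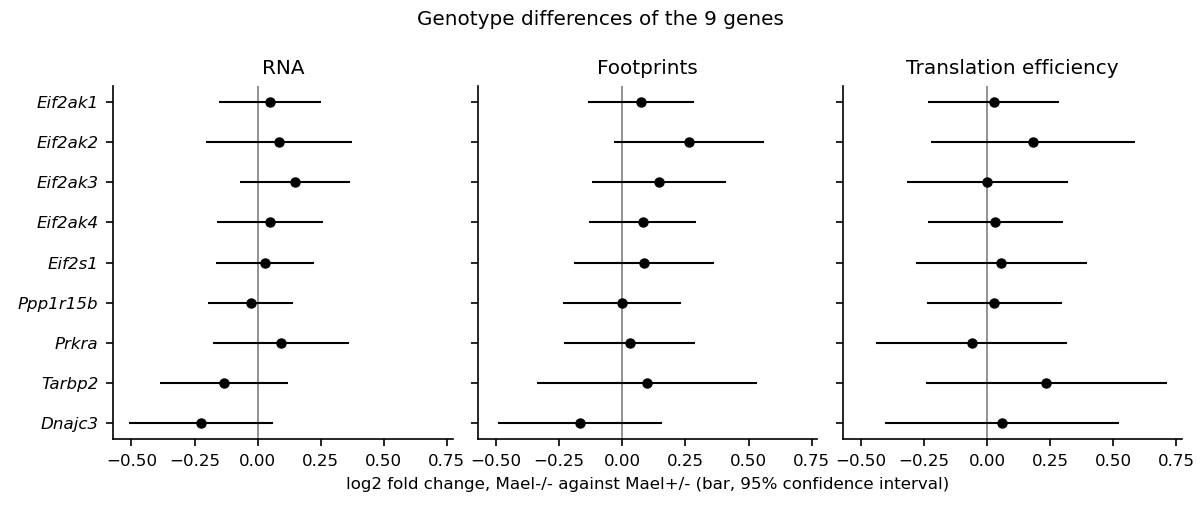
Log2 fold changes of *Mael*-/- against *Mael*+/- (horizontal axis) for the 9 genes in RNA, footprints and translation efficiency. Points are edgeR estimates from the fits without a block and bars their 95% confidence intervals. Every interval includes 0, and *Tarbp2* has the widest in footprints and in translation efficiency.

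Translation efficiency passed the test in none of the 9 genes, with edgeR adjusted p of 1 for each. The fold changes of footprints beyond RNA ran from -0.06 (SE 0.18, interval -0.44 to 0.32) for *Prkra* to 0.24 (SE 0.22, interval -0.24 to 0.71) for *Tarbp2*. *Eif2ak2* was at 0.18 (SE 0.19, interval -0.22 to 0.59). The other 6 genes were between 0.00 and 0.06. RNA and footprints of the same number were taken to share an extract, and with the extract as a block the values of *Prkra*, *Eif2ak2* and *Tarbp2* were -0.07 (interval -0.27 to 0.13), 0.17 (interval -0.11 to 0.46) and 0.25 (interval -0.12 to 0.61). *Dnajc3* was at 0.07 (interval -0.13 to 0.27) with the block. The fit without the block does not use this pairing, and its intervals were wider for each of the 9 genes. All intervals with the block included 0 too.

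The ratio of *Prkra* to *Tarbp2* or to *Eif2ak2* was taken within each library, per length of the counted sequence, and is free of library size. In RNA the ratio of *Prkra* to *Tarbp2* was 4.83, 5.76 and 7.2 in *Mael*+/- and 7.94, 6.20 and 6.78 in *Mael*-/-. In footprints it was 18.8, 19.8 and 30.1 in *Mael*+/- and 22.3, 15.7 and 29.8 in *Mael*-/-. The genotypes overlapped in both assays, and all 6 footprint ratios lay above all 6 RNA ratios. Mean log2 ratios differed between genotypes by 0.24 in RNA (exact two-sided permutation p = 0.3, adjusted over 4 tests 0.6). This value was 0.11 without *Mael*+/- replicate 1, 0.15 without *Mael*-/- replicate 1 and 0.39 without *Mael*+/- replicate 3. They differed by -0.03 in footprints (exact permutation p = 0.9, adjusted 1). *Prkra* to *Eif2ak2* ran from 16.3 to 19.5 in RNA, with a genotype difference of 0.01 (exact permutation p = 1, adjusted 1). In footprints it was 9.02, 11.6 and 11.4 in *Mael*+/- and 8.75, 9.52 and 8.84 in *Mael*-/-, with a difference of -0.23 (exact permutation p = 0.2, adjusted 0.6). As each library was left out in turn, this difference ran from -0.35 (without *Mael*+/- replicate 1) to -0.16. With 3 libraries against 3, the smallest p this test can give is 0.1.

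Levels can be compared between genes only per length, as CPM per kilobase of the merged exons of a gene's curated RefSeq mRNAs for RNA and of their merged coding sequence for footprints. Per length, *Prkra* was the most abundant of the 9 genes by far. It reached 107 ± 12.2 CPM per kilobase in RNA and 209 ± 21.2 in footprints (SD, n = 6 libraries of both genotypes), above 96.1% and 95.8% of the genes tested. Without lengths, its RNA means of 169 CPM in *Mael*+/- and 180 CPM in *Mael*-/- were below those of *Ppp1r15b* (186 and 182 CPM). *Dnajc3* was at 179 and 153 CPM. In footprints without lengths, *Prkra* stayed the highest, at 194 and 198 CPM. Per length, *Eif2s1* came next, with 41.0 ± 2.21 in RNA and 105 ± 12.4 in footprints, where the range of *Dnajc3* reached into its own. In RNA, *Ppp1r15b* (32.9 ± 0.72) and *Dnajc3* (32.0 ± 5.09) followed and overlapped, and *Dnajc3* also overlapped with *Eif2ak1* (26.4 ± 1.49). Below them, each gene lay above the next in all 6 RNA libraries with no overlap: *Tarbp2* at 16.8 ± 1.53, *Eif2ak4* at 12.7 ± 0.78, *Eif2ak3* at 10.5 ± 0.87 and *Eif2ak2* at 5.97 ± 0.64 CPM per kilobase.

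Footprints ordered the lower genes differently. *Dnajc3* (68.3 ± 12 CPM per kilobase of coding sequence) and *Ppp1r15b* (59.3 ± 4.74) overlapped again, and *Eif2ak1* was at 35.6 ± 2.0. *Eif2ak2* stood sixth at 21.4 ± 3.19, above *Eif2ak4* (14.7 ± 0.89), *Eif2ak3* (12.1 ± 1.28) and *Tarbp2* (9.51 ± 1.66) in all 6 libraries. The ranges of the last 3 genes overlapped with their neighbours. *Eif2ak2* thus went from the last place in RNA to the sixth in footprints, and *Tarbp2* from the sixth to the last. In CPM without lengths, *Eif2ak2* was the lowest of the kinases in footprints too. Its means were 30.1 CPM in *Mael*+/- and 36.2 CPM in *Mael*-/-, against 38.7 and 42.8 CPM for *Eif2ak3*. The place of *Eif2ak2* among the kinases in footprints therefore rests on the RefSeq lengths.

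**Figure D3:**
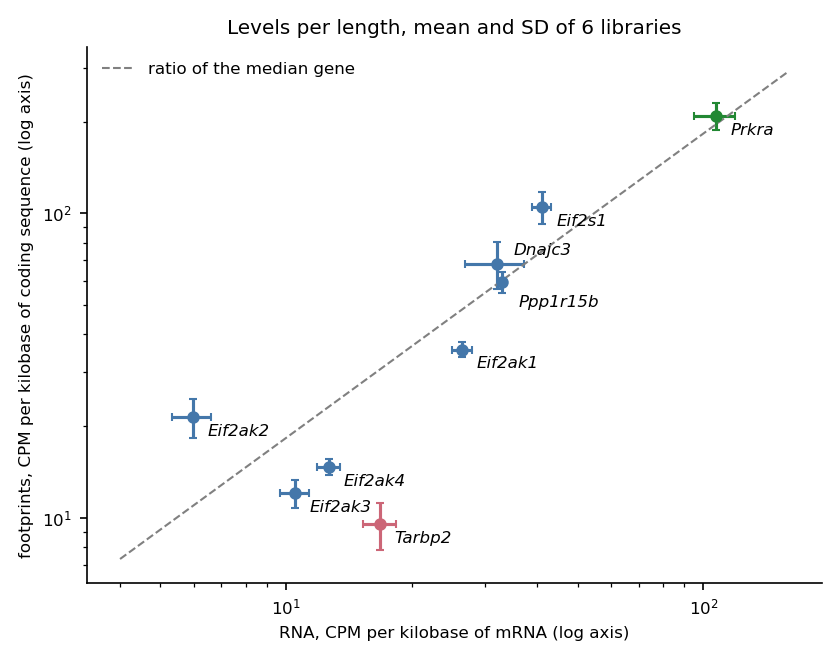
Footprint level (CPM per kilobase of coding sequence, vertical log axis) against RNA level (CPM per kilobase of mRNA, horizontal log axis) of the 9 genes; points are means and bars SDs of 6 libraries, and the dashed line marks the footprint to RNA ratio of the median gene. *Eif2ak2* lies above the line and *Tarbp2* farthest below it.

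Among the kinases alone, *Eif2ak1* made up the largest share in every library. Per length, it gave 44.9 to 52.0% of the RNA of the 4 kinases and 39.9 to 45.5% of their footprints. *Eif2ak4* gave 21.3 to 24.3% of the RNA and 16.5 to 19.6% of the footprints, and *Eif2ak3* 17.3 to 20.1% and 12.9 to 16.4%. *Eif2ak2* gave 9.41 to 12.8% of the RNA but 21.3 to 28.9% of the footprints. It was the smallest share of the RNA and the second largest of the footprints in all libraries. The genotypes overlapped in the share of each kinase in both assays.

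**Figure D4:**
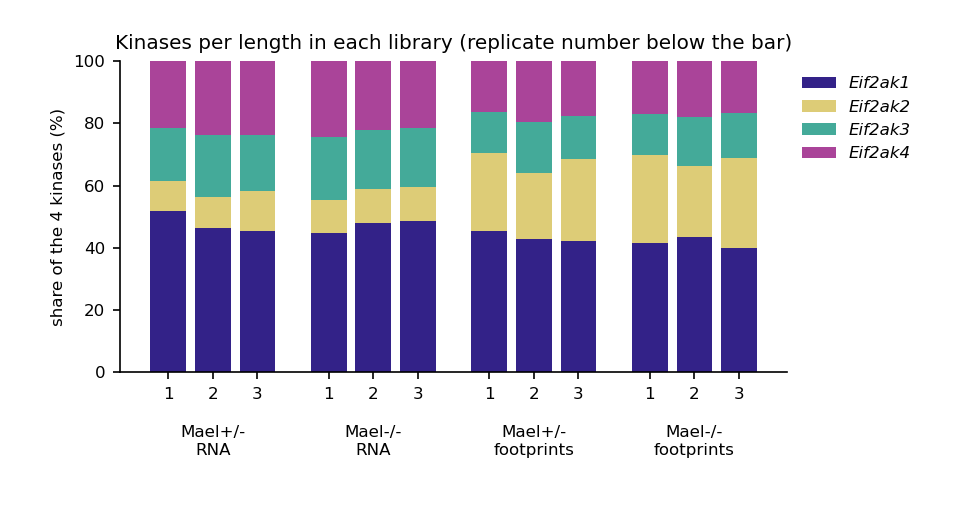
Share of each of the 4 kinases in their summed CPM per kilobase (vertical axis, %), 1 bar for each of the 12 libraries, grouped by genotype and assay. *Eif2ak1* takes the largest part of every bar, and *Eif2ak2* takes 9.41 to 12.8% in RNA and 21.3 to 28.9% in footprints.

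The comparison of footprints with RNA asked how densely each mRNA was occupied, in both genotypes together. *Tarbp2* had the fewest footprints for its RNA, a fold of -1.52 (SE 0.11, edgeR adjusted p 5.3e-09), at percentile 4.4 of 13448 genes. *Dnajc3* (-0.68, SE 0.10, adjusted p 2.6e-05), *Ppp1r15b* (-0.57, SE 0.06, adjusted p 3.8e-07), *Eif2s1* (-0.38, SE 0.08, adjusted p 0.00034), *Eif2ak3* (-0.32, SE 0.07, adjusted p 0.00081) and *Eif2ak1* (-0.15, SE 0.06, adjusted p 0.027) were lower too. The call of *Eif2ak1* was lost in 5 of the 12 fits that left out a library (adjusted p 0.052 to 0.062), and those of the other 5 lower genes in none. *Eif2ak2* was higher, at 0.36 (SE 0.09, adjusted p 0.0030). *Eif2ak4* (0.13, SE 0.06, adjusted p 0.062) and *Prkra* (0.17, SE 0.08, adjusted p 0.075) did not pass the threshold. With the extract as a block both passed as higher, with adjusted p of 0.016 and 0.0011, and with a library left out they passed in 2 and 3 of the 12 fits. The count of members called thus rose from 7 of 9 to 9 of 9, beside 70.8% and 79.8% of all genes.

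These folds set counts over coding sequence against counts over whole mRNA, so a gene with long untranslated regions comes out low. Coding sequence makes up 29.2% of the *Dnajc3* mRNA, 30.1% of *Eif2s1*, 35.8% of *Eif2ak2* and 37.5% of *Ppp1r15b*, but 61.3% of *Tarbp2* and 94.3% of *Eif2ak4*. Divided by these lengths, the median of 13395 genes had a log2 ratio of 0.87. *Tarbp2* had -0.85, -0.89 and -1.07 in the *Mael*+/- extracts and -0.50, -0.46 and -1.22 in the *Mael*-/- extracts. All 6 extracts lay far below the median gene and below every other member, and *Tarbp2* stood at percentile 1.71. *Eif2ak2* had 2.01, 1.64 and 1.61 in the *Mael*+/- and 2.05, 1.66 and 2.05 in the *Mael*-/- extracts. It was the highest of the 9 genes in each extract, at percentile 87.3.

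The other kinases had low ratios per length. *Eif2ak1* averaged 0.43 ± 0.07 (SD, n = 6 extracts), *Eif2ak4* 0.21 ± 0.08 and *Eif2ak3* 0.20 ± 0.10, at percentiles 24.7, 14.7 and 13.9. *Eif2s1* averaged 1.35 ± 0.16 and *Dnajc3* 1.09 ± 0.06. *Prkra* (0.96 ± 0.08) and *Ppp1r15b* (0.85 ± 0.12) were near the median gene, at percentiles 55.5 and 48.8. Hence the lower plain folds of *Dnajc3* and *Eif2s1* turned into ratios above the median gene once length was counted. *Eif2ak4* went the other way, from percentile 62.6 in the plain folds to 14.7 per length. *Tarbp2* and *Eif2ak2* kept their sides. The lengths are those of RefSeq, and the annotation behind the counts is not given in the sources used here.

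**Figure D5:**
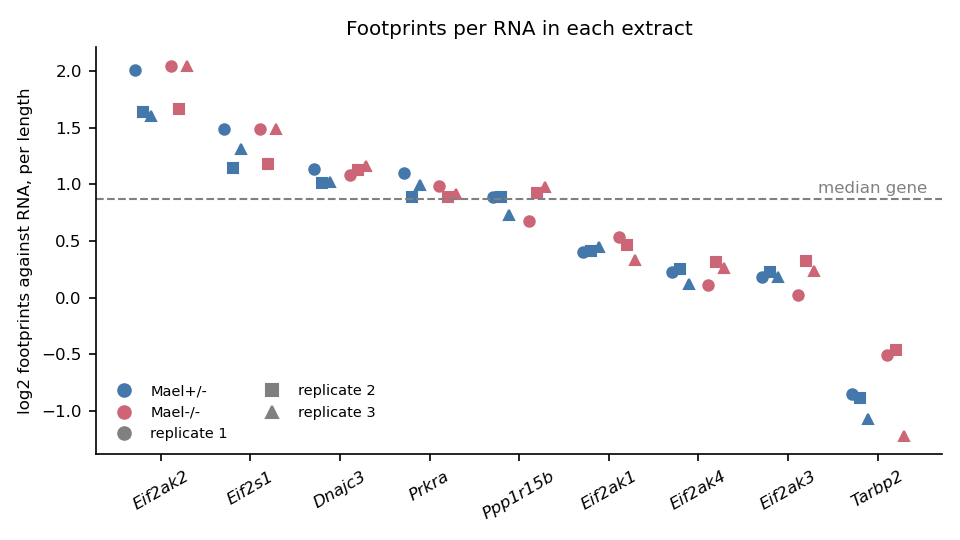
Log2 ratio of footprints to RNA per length (vertical axis) in each of the 6 extracts for the 9 genes, blue for *Mael*+/- and red for *Mael*-/-, with the symbol giving the replicate number and the dashed line the median of all genes (0.87). *Eif2ak2* is highest in every extract and *Tarbp2* lowest, between -1.22 and -0.46.

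The gene pattern most like that of *Prkra* over the 12 libraries, each taken relative to the gene's mean in its assay, was that of *Kat2b*, with a root mean square difference of 0.044 on the log2 scale. *Slc11a2* (0.049) and *Adh5* (0.050) followed, out of 13438 genes compared, and the variation of *Prkra* itself was 0.146. For *Eif2ak2*, with a variation of 0.173, the nearest were *Pgm3* (0.073), *Siae* (0.075) and *Tspyl2* (0.075). With so many genes and few libraries, close matches can be found for most genes.

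Around the 9 genes, no gene of the pathway lists was called in any of the 3 genotype tests. Of the other eIF2 and eIF2B subunits and eIF5, 3 of 9 were above 0 in RNA and 1 of 9 in footprints, with medians of -0.08 and -0.10. Without the first *Mael*+/- extract, 4 and 3 of 9 were above 0 (medians -0.04 and -0.02). The furthest from 0 in RNA was *Eif5*, the GTPase activator of eIF2, with 352, 253 and 291 CPM in *Mael*+/- and 263, 255 and 241 CPM in *Mael*-/- (-0.24, SE 0.12, or -0.10 without the first control). In footprints it was *Eif2b2*, a subunit of the exchange factor, with 51.9, 53.5 and 49.6 CPM in *Mael*+/- and 45.3, 47.5 and 42.5 CPM in *Mael*-/- (-0.20, SE 0.10). Every mutant library of *Eif2b2* lay below the controls, and 9.1% of all genes had no overlap in footprints. Of the other phosphatase subunits, 2 of 4 were above 0 in RNA and 1 of 4 in footprints (medians 0.02 and -0.06), with *Ppp1cb* (-0.18, SE 0.22) furthest from 0 in RNA and *Ppp1cc* (-0.27, SE 0.28) in footprints. Without the first *Mael*+/- extract these were 0.10 and -0.03.

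Activators, inhibitors and chaperones of the kinases were above 0 in 3 of 8 cases in RNA and in 3 of 8 in footprints (medians -0.06 and -0.03; 5 of 8 in both and medians of 0.04 and 0.03 without the first *Mael*+/- extract), led in RNA by *Hspa5*, given above. In footprints the furthest was *Impact*, an inhibitor of GCN2 activation, with 24.1, 19.1 and 25.3 CPM in *Mael*+/- and 32.5, 26.0 and 29.4 CPM in *Mael*-/- (0.36, SE 0.14, edgeR adjusted p 0.998). Its mutant libraries were all higher than the controls, and 9.1% of all genes had no overlap in footprints. Double-stranded RNA partners of *Prkra*, *Tarbp2* and *Eif2ak2* were above 0 in 3 of 8 cases in RNA and in 2 of 8 in footprints (medians -0.09 and -0.06), with *Stau1* (-0.17, SE 0.10) furthest from 0 in RNA. Without the first *Mael*+/- extract, 5 and 4 of 8 were above 0 (medians 0.03 and -0.01).

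Targets of the integrated stress response, here *Atf4* itself and genes that ATF4 and its partners switch on, were mostly above 0. In RNA 13 of 15 were, with a median of 0.18, and in footprints 13 of 14 with a median of 0.17, beside 49.6% and 47.5% of all genes. Without the first *Mael*+/- extract, 12 of 15 were above 0 in RNA (median 0.11) and 13 of 15 in footprints (median 0.14). No target was called in either assay with all libraries, where 0.116% and 0.0593% of all genes were, and none was without that extract. Markers of macrophages (6 of 6, medians 0.33 and 0.24) and peritubular cells (4 of 4, medians 0.19 and 0.22) were also above 0 in both assays, and their part in the values of the stress targets was not tested. *Chac1*, an enzyme that degrades glutathione, had the highest fold change in RNA, 1.56 (SE 0.36, edgeR adjusted p 0.45), from 0.91, 1.43 and 0.57 CPM in *Mael*+/- and 3.64, 3.07 and 2.04 CPM in *Mael*-/-. Its genotypes did not overlap, as for 10.3% of all genes in RNA, at levels of a few CPM. *Trib3*, a pseudokinase that restrains ATF4, was furthest from 0 in footprints, with 2.65, 4.14 and 3.51 CPM in *Mael*+/- and 4.92, 5.19 and 5.10 CPM in *Mael*-/- (0.57, SE 0.23, edgeR adjusted p 0.998, or 0.41 without the first *Mael*+/- extract). In translation efficiency 8 of the 14 targets were above 0, with a median of 0.03.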

How the data were processed

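The authors removed linkers and reads of ribosomal DNA (Bowtie 1.2.2), aligned the rest to mm10 with STAR 2.6.0c and counted them with featureCounts (Subread 1.6.4), with entire mRNAs as features for RNA and coding sequence alone for footprints. Strand settings, annotation and treatment of duplicates are not given in the sources used here. The deposited table holds raw counts for 20620 genes, 18024 of them with counts, and for repeat copies, which took 7.65 to 10.2% of counts in RNA and 10.8 to 13.6% in footprints and were not used. The deposited DESeq2 result tables hold the authors' own comparisons (log2 fold changes, p-values) and were not used. No 2 libraries held identical counts.

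Tests used edgeR 4.0.16 (R 4.3.3) on the counts (TMM within each assay, filterByExpr, quasi-likelihood F-test, Benjamini-Hochberg over all genes tested). RNA and footprints were fitted on 6 libraries each by genotype. Translation efficiency, the interaction of genotype and assay, and the assay term were fitted on all 12 libraries. Ratios within a library were compared by exact permutation. Functions were tested on simulated counts. Alternatives were DESeq2 1.42.0, median-of-ratios size factors, other filters on low counts, thinned RNA, a replicate block, and each library left out. Leaving the first *Mael*+/- library out of the list values was added after seeing the data. The members and lists were chosen with earlier results of these data known. The text names all 9 members, *Mael*, called genes of each list or otherwise its gene furthest from 0 in RNA and in footprints, and the 3 genes most like *Prkra* and *Eif2ak2*. A value for 1 list in footprints is not reported here. The lists held eIF2, eIF2B and eIF5 subunits, phosphatase subunits, kinase activators, inhibitors and chaperones, double-stranded RNA partners, integrated stress response targets and markers of testis cells. *Dele1* and *Adgre1* were found under the older symbols *0610009O20Rik* and *Emr1*.

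Same-numbered RNA and footprint libraries deviated together from their group means (r = 0.654 to 0.798 in *Mael*+/- and 0.264 to 0.292 in *Mael*-/-, over 11235 genes), and all 12 correlated best with their own number. The protocols in the labels split each extract between the assays. These numbers were therefore taken as pairs. Exons of *Eif2ak1* share 14 bases with those of *Aimp2* on the other strand, and those of *Eif2ak2* share 173 bases with *Gm26637*, with none in coding exons.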

Additional observations from a re-analysis of the deposited data

How the results depend on the processing

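No member was called between genotypes under any alternative in RNA, footprints or translation efficiency, where the smallest adjusted p over them were 0.540, 0.526 and 1. Of 563 alternative fold changes and ratios, 48 had the opposite sign to the reported one, and 45 of these came from leaving out a library. The other 3 were 0.00075 for *Ppp1r15b* in footprints (filter at a mean of 50 counts), -0.0100 for *Eif2ak3* in translation efficiency (without the first *Mael*+/- extract), and -0.0017 for the latter with the extract as a replicate block. The values with a library left out ran as follows in RNA: *Eif2ak2* -0.0024 to 0.23, *Eif2ak4* -0.0059 to 0.089, *Eif2s1* -0.0267 to 0.066, *Prkra* -0.0267 to 0.21. In footprints they were *Eif2s1* -0.031 to 0.21, *Ppp1r15b* -0.051 to 0.094, *Prkra* -0.048 to 0.15, *Tarbp2* -0.075 to 0.25 and *Dnajc3* -0.27 to 0.047. In translation efficiency they were *Eif2ak1* -0.034 to 0.077, *Eif2ak3* -0.078 to 0.096, *Eif2ak4* -0.011 to 0.092, *Eif2s1* -0.059 to 0.19, *Ppp1r15b* -0.022 to 0.12, *Prkra* -0.17 to 0.055 and *Dnajc3* -0.11 to 0.28. The genotype difference of the log2 ratio of *Prkra* to *Tarbp2* in footprints ran from -0.26 to 0.20, in RNA from 0.11 to 0.39, and that of *Prkra* to *Eif2ak2* in RNA from -0.047 to 0.074. Among list genes, *Ppp1cb* in RNA went from -0.18 to 0.097 without the first *Mael*+/- extract, a setting for lists chosen after seeing the data. The cause of these changes was not tested.

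Genes called in RNA were 17 in edgeR, 58 in DESeq2, 10 with RNA thinned to the footprint depth and 4 above a mean of 50 counts, and 2 (without *Mael*-/- replicate 1) to 64 (without *Mael*+/- replicate 1) with a library left out. In footprints they were 8, 21 in DESeq2 and 1 above a mean of 50 counts, and 2 (without *Mael*+/- replicate 3) to 17 (without *Mael*+/- replicate 1) with a library left out. Across genotypes, numbers paired the libraries in neither assay (r from -0.045 to 0.291 in RNA and 0.065 to 0.280 in footprints, with 3 and 4 of 6 libraries best matched to their own number), and a block on the number gave 50 and 23 called genes, with 0 members among them. Members called between footprints and RNA were 7 under all other alternatives with every library, 9 with the extract as a replicate block, and 6 to 9 with a library left out.

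With 3 libraries a group, the outermost bounds of the 95% intervals were -0.51 in RNA (*Dnajc3*), 0.56 in footprints (*Eif2ak2*) and 0.71 in translation efficiency (*Tarbp2*). The bound of *Tarbp2* in translation efficiency was 0.61 with the extract as a block. Other genes were bounded more closely, such as *Ppp1r15b* in RNA (-0.20 to 0.14).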

Other observations

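Markers of testis cells were not called in any genotype test with all libraries. All 10 pachytene markers tested were below 0 in RNA (median -1.63), with *Spag6* the lowest (9.53, 0.88 and 2.15 CPM in *Mael*+/-, 0.36, 0.10 and 0.40 CPM in *Mael*-/-), and all 8 tested in footprints were too (median -1.55). *Adam2* was the lowest there (-3.71, SE 0.93), with 31.7, 2.33 and 3.90 CPM in *Mael*+/- and 1.29, 0.90 and 0.59 CPM in *Mael*-/-. The first *Mael*+/- extract had the highest sum of these markers in both assays. Without it, a setting chosen after seeing the data, the medians were -0.57 in RNA (9 of 10 below 0) and -0.54 in footprints (7 of 8), *Spag6* was at -2.35 and *Adam2* at -1.71.

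Early meiotic markers were above 0 in 4 of 8 cases in RNA and 3 of 8 in footprints (medians -0.11 and -0.30), and without the first *Mael*+/- extract in 6 and 5 of 8 (medians 0.26 and 0.12). *Spo11* (-0.62, SE 0.26) in RNA and *Sycp3* (-0.77, SE 0.35) in footprints were furthest from 0. Both were highest in the first *Mael*+/- extract, at 40.3 CPM in RNA for *Spo11* and 878 CPM in footprints for *Sycp3*, and were at -0.19 and -0.06 without it. With that library left out, 4 markers were called in RNA and none in footprints. They are named after their values were seen: *Adam2* (-1.96, edgeR adjusted p 0.0027) and *Hspa2* (-0.43, 0.0498) were lower, and *Meiob* (0.71, 0.0492) and *Rad51ap2* (1.12, 0.0058) were higher in *Mael*-/-. With all libraries these 4 fold changes were -3.60, -1.08, 0.05 and 0.40, and none was called. *Meiob* and *Rad51ap2* were highest of all RNA libraries in the one left out, at 61.9 and 57.2 CPM. Over all genes, the fit without it called 64, of which 41 were higher in *Mael*-/-.

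Spermatogonia markers were above 0 in 2 of 7 cases in each assay (medians -0.06 and -0.03), with *Kit* (-0.18, SE 0.10) in RNA and *Gfra1* (0.15, SE 0.18) in footprints furthest from 0. Sertoli markers were above 0 in 5 of 8 in each (medians 0.01 and 0.06), with *Amh* furthest from 0 (-0.33 and -0.27). Without the first *Mael*+/- extract, 5 and 1 of 8 were above 0 (medians 0.02 and -0.03), with *Amh* at -0.58 and -0.50. Leydig markers were above 0 in 3 of 6 in each (medians 0.02 and -0.02), with *Insl3* (0.78, SE 0.28, or 0.55 without that extract) in RNA and *Star* (-0.27, SE 0.41, or -0.58 without it) in footprints. *Insl3* RNA was low, at 1.08, 1.98 and 2.04 CPM in *Mael*+/- and 2.69, 2.82 and 3.25 CPM in *Mael*-/-. Its genotypes did not overlap, as for 10.3% of all genes in RNA. All 6 macrophage markers were above 0 in both assays (medians 0.33 and 0.24), led by *Emr1* (0.44, SE 0.22) and *Csf1r* (0.40, SE 0.19), and 5 of 6 without that extract (medians 0.24 and 0.16). All 4 peritubular markers were above 0 with and without it (medians 0.19 and 0.22 with it), led by *Cnn1* (0.25, SE 0.11) and *Myh11* (0.26, SE 0.14). Their sum was 824 to 860 CPM in *Mael*+/- and 922 to 975 CPM in *Mael*-/- in RNA, with no overlap, as for 10.3% of all single genes, and 1091 to 1330 and 1310 to 1610 CPM in footprints, where the genotypes overlapped.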
